A study of Mus musculus with 11 samples.

Results

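Genes that make cholesterol, control its synthesis and carry it out of cells were followed in regulatory T cells (Tregs) sorted from mouse tumors and spleens. The 8 genes were chosen by symbol: Srebf2 and Insig1 for control, Hmgcs1, Idi1, Fdps and Sqle for synthesis, and Abca1 and Abcg1 for export. All 8 were among the 14604 genes with deposited values, and all 8 were among the 13897 that passed the filter on low values, a mean log2(n + 1) of at least 0.5. None of the 8 is an uptake receptor, so uptake was read from a wider list. Every mouse carried CD177flox/flox, a floxed allele of the surface protein gene CD177, and was implanted with MC38, a colon adenocarcinoma line. The knockout (KO) mice also carried FOXP3-CreYFP, in which the Foxp3 locus drives Cre, the recombinase that cuts floxed alleles, in Tregs; the mice without Cre are called wild type (WT), as in the labels. The libraries came from 3 WT and 3 KO spleens and from 3 WT and 2 KO tumors, 11 in all, and the labels give no age. The study's methods describe MC38 implanted into young adult C57BL/6 mice and do not say whether that holds for the CD177flox/flox mice. Live CD4+GITR+CD25+ cells were sorted, and by the study's methods the spleens came from the same mice as the tumors. The labels do not say which tumor and spleen libraries share a mouse. The main fit therefore treated all libraries as unpaired.

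Animal cells make cholesterol from acetyl-CoA through mevalonate, isoprenoid units and squalene. When sterol in the endoplasmic reticulum is low, the transcription factor SREBP-2, the product of Srebf2, is escorted by SCAP to the Golgi, where proteases release its active part, which turns on the genes of synthesis and uptake, whereas INSIG proteins hold SCAP back when sterol is high. Sterol surplus is sensed by the LXR receptors, which turn on the exporters ABCA1 and ABCG1, and proliferating T cells are known to need sterol for new membrane.

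Totals of n ranged from 712832 to 844331 in the 6 spleen libraries and from 1103159 to 1304548 in the 5 tumor libraries, and these ranges did not overlap. A single transcript, Gm12896, took 31.4% to 42.4% of the total in spleen and 31.4% to 41.3% in tumor. How n was scaled is not stated, and the table does not give the reads behind each value, so the precision comes only from the spread between libraries. Nothing in the labels says that the libraries of a group came from separate animals, so p-values measure only the spread between these libraries. Cd177 is not listed, which leaves the genotype of each library unchecked. The Treg markers were present in both tissues, with Foxp3 at 6.35 ± 0.30 in spleen (log2(n + 1), SD, n = 6) and 5.50 ± 0.55 in tumor (n = 5), 2 of the 9 called higher and 5 lower, and their summed level spanned 10.6 to 10.8 in spleen and 10.3 to 10.8 in tumor. Myeloid markers, however, were high in the tumor libraries. All 17 of 17 were called higher, their summed level rose from 8.09 to 9.05 in spleen to 13.6 to 14.1 in tumor, and Lyz2, Ctss and C1qa stood at 12.35, 11.01 and 10.33 in tumor. Fibroblast markers passed as higher in 5 of 6 (summed level 2.34 to 2.64 against 9.21 to 10.4), with Col3a1 at 8.84 in tumor, and CD8 T and NK markers passed as higher in 6 of 8 and lower in 1 (5.37 to 6.08 against 7.07 to 8.89). Of 6 B cell markers 5 were called lower (3.82 to 5.83 against 2.25 to 4.27), and of 8 erythroid and platelet markers 7 were lower and 1 higher (7.28 to 10.2 against 8.10 to 9.29). The 1 higher was Pf4, with means of 2.35 in spleen and 8.69 in tumor, whereas Hba-a2 went from 7.41 to 3.64. Of 2 epithelial markers Cdh1 was higher (means 0.75 and 4.08) and Epcam did not pass (1.81 and 1.62). The epithelial sum, which includes Krt18, was 1.88 to 2.35 against 3.85 to 4.65. Beside these marker counts, 78.9% of all genes were called in the same pooled comparison of tumor with spleen, and 43.1% were called higher. Dcn, Lum, Pdgfra, Pax5, Krt8, Krt19 and Cldn4 of these lists are not listed, and Krt18 fell below the filter. The part of these cells in the differences that follow was not tested, and in a bulk sample fewer cells of a type and less RNA per cell cannot be told apart.

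The bases before the start site are shown for 3 genes of the SREBP-2 loop and for Abca1, because Srebf2 and Hmgcs1 share the element marked, and Abca1, which holds neither marked motif, moved farthest. The sequences are RefSeq's on GRCm38.p6, which has the coordinates of mm10, and run 5′ to 3′ on the strand of the gene, from 250 bases before the RefSeq start site up to that site or to the GENCODE M21 gene, whichever comes first. Capitals mark TCACCCCA, a form of the sterol regulatory element, and CCAAT on either strand, which reads ATTGG on the strand shown.
Srebf2 (chr15:82147019-82147180, plus strand): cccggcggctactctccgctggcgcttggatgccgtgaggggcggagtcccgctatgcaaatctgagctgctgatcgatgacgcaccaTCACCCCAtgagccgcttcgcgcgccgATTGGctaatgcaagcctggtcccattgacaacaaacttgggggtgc
Insig1 (chr5:28071162-28071362, plus strand): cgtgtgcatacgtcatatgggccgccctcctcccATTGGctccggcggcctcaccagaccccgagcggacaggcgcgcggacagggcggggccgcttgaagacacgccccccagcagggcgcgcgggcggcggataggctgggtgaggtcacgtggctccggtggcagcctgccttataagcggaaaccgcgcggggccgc
Hmgcs1 (chr13:119690101-119690350, plus strand): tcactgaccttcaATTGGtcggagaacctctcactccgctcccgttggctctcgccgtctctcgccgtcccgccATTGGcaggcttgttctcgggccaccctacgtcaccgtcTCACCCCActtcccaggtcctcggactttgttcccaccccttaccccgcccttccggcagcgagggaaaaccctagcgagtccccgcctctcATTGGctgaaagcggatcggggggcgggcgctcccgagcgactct
Abca1 (chr4:53159896-53160145, minus strand): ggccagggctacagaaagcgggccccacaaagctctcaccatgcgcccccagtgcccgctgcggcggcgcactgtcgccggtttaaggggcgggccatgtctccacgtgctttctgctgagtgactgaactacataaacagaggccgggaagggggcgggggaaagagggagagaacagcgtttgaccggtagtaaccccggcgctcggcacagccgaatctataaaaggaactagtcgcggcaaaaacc

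TCACCCCA began 162 bases before the RefSeq start site of Srebf2 and 137 bases before that of Hmgcs1, and was not found in the windows of the other 3 members that have one, Insig1, Idi1 and Abca1. It was in 1.34% of 32851 windows of 250 bases, searched on both strands, and in 1.52% of genes tested that have a window. Of the 16 genes on the sterol synthesis list with a window, 1 held it, Hmgcs1. These letters were chosen after the windows had been looked at. CCAAT was in the windows of 4 of 5 members, at 135 bases before the start in Srebf2, 216 in Insig1, 45 and 14 in Idi1, and 237, 176 and 45 in Hmgcs1, and in none of Abca1. It occurred in 33.8% of all windows, and among genes tested that have a window it occurred in 40.6%. Of the 16 genes on the sterol synthesis list with a window, 15 held CCAAT. The GC box GGGCGG was in all 5 of 5 members against 61.8% of genes tested with a window. In Idi1 the GC box, at 69 bases before the RefSeq start, and both CCAAT matches lie within the GENCODE M21 gene. The E-box CACGTG was in Abca1 and Insig1 against 9.60% of genes tested with a window. The half-site AGGTCA of nuclear receptors was in Insig1, where it overlaps the E-box, and in Hmgcs1 at 246 bases before the start. It was not in Abca1, and it occurred in 13.3% of genes tested with a window. Only these exact letters were searched, so a site that differs from them in a base would have been missed. A match of letters describes the sequence and is no evidence that a factor binds there.

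Tumor and spleen Tregs were compared first with the genotypes pooled, the comparison the study made. The difference in log2(n + 1), tumor minus spleen, was fitted with limma over all 13897 genes, and a gene was called where its Benjamini-Hochberg adjusted p was below 0.05. All 4 synthesis enzymes and Insig1 rose in tumor by 1.27 to 1.99, Abca1 rose by 3.90, Srebf2 was called higher by only 0.37, a direction that turned when libraries were brought to equal totals, and Abcg1 did not pass. Thus 7 of 8 genes were called, all higher in tumor, and in those 7 no tumor library overlapped a spleen library. Across all genes 78.9% were called, 43.1% were called higher, and in 63.5% the tissues did not overlap, so that being called is common in this comparison and the sizes say more than the count. In order of the difference among the 13897 genes, Abca1 was at place 255, Hmgcs1 at 1152, Fdps at 1387, Sqle at 1407, Insig1 at 1780, Idi1 at 2158, Srebf2 at 5379 and Abcg1 at 6685.

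**Figure D1:**
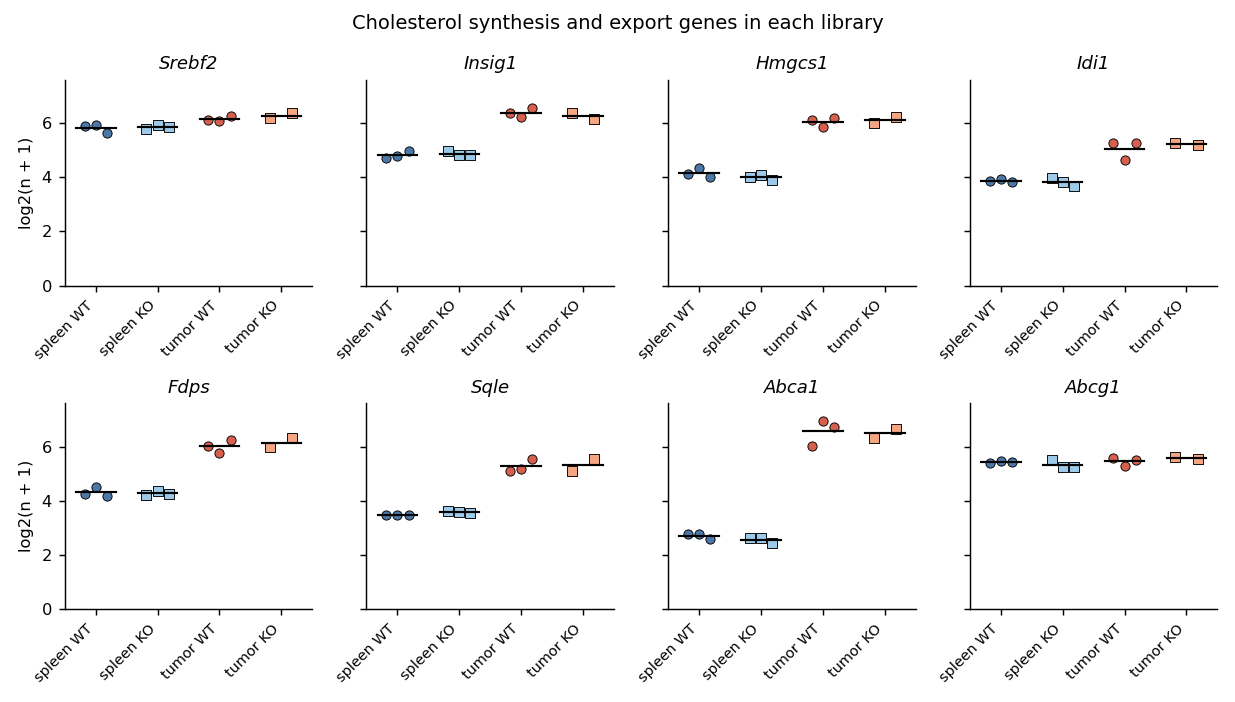
Log2(n + 1) of the 8 genes (vertical axis) in each of the 11 libraries, by tissue and genotype; points are libraries and bars are group means. On this scale, that of the deposited values, the 5 tumor libraries lie above the 6 spleen libraries in every gene but Abcg1, and Abca1 has the widest gap.

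Srebf2, the gene for the transcription factor SREBP-2, lies on chromosome 15 at 82147181 to 82205379, plus strand (here and for the other genes by GENCODE M21 on GRCm38). It read 5.89, 5.91 and 5.62 in WT spleen, 5.77, 5.92 and 5.84 in KO spleen, 6.12, 6.06 and 6.27 in WT tumor, and 6.17 and 6.36 in KO tumor. The highest spleen value, 5.92, was close below the lowest tumor value, 6.06. The mean went from 5.82 ± 0.11 (SD, n = 6) to 6.20 ± 0.12 (n = 5), a difference of 0.37 (SE 0.073; adjusted p = 0.000401, limma), and the exact two-sided permutation p of 0.0043 is the smallest that 6 against 5 libraries can give. The direction depended on the scale: with all libraries brought to an equal total the difference was -0.25 (adjusted p = 0.0304) and with quantile normalization 0.0079 (adjusted p = 0.922), so no direction can be given for Srebf2.

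Insig1, whose product retains SCAP in the endoplasmic reticulum, is itself a target of SREBP-2 and lies on chromosome 5 at 28071363 to 28078662, plus strand. Its values were 4.72, 4.79 and 4.96 in WT spleen, 4.96, 4.84 and 4.81 in KO spleen, 6.37, 6.21 and 6.56 in WT tumor, and 6.35 and 6.16 in KO tumor. The spread within a tissue stayed under 0.4, whereas the gap between the tissues was over 1. Insig1 rose by 1.48 (SE 0.078; 95% interval 1.31 to 1.65; adjusted p = 2.44e-09, limma), and the ratio of mean n, tumor to spleen, was 2.87. Insig1 thus rose while Srebf2, upstream of it in the loop, moved little; the within-library difference Insig1 minus Srebf2, which depends little on how libraries are scaled, was -0.98 ± 0.20 in spleen (SD, n = 6) and 0.13 ± 0.19 in tumor (n = 5).

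Hmgcs1, the synthase that makes HMG-CoA early in the pathway, lies on chromosome 13 at 119690379 to 119708260, plus strand. It read 4.14, 4.34 and 4.01 in WT spleen, 4.01, 4.09 and 3.91 in KO spleen, 6.13, 5.85 and 6.17 in WT tumor, and 5.997 and 6.22 in KO tumor. Every tumor library was more than 1 unit above every spleen library. Hmgcs1 rose by 1.99 (SE 0.089; 95% interval 1.80 to 2.18; adjusted p = 6.29e-10, limma), the widest difference of the 4 enzymes, with a ratio of mean n of 4.16. Its exons overlap those of the antisense gene Gm48342, and stretches of at least 75 bases match transcripts of 22 other genes at 95% identity or more, so its value is uncertain to that extent.

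Fdps, which makes farnesyl diphosphate, the branch point to sterols and to protein prenylation, lies on chromosome 3 at 89093588 to 89101959, minus strand. It read 4.26, 4.52 and 4.17 in WT spleen, 4.24, 4.37 and 4.24 in KO spleen, 6.03, 5.77 and 6.25 in WT tumor, and 5.98 and 6.32 in KO tumor. The tissues lay well apart, and the tumor libraries were the more spread. Fdps rose by 1.77 (SE 0.10; adjusted p = 4.87e-09, limma), with a ratio of mean n of 3.56. Transcripts of 7 other genes match Fdps at 95% identity or more over at least 75 bases, among them the pseudogene Gm3571 (98.9% over 1062 bases) and Gm43738, which shares its exons on the same strand. None of the 7 is listed in the table, and how reads were shared among them is unknown.

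Sqle, squalene epoxidase, the enzyme that commits squalene to sterols, lies on chromosome 15 at 59315077 to 59331192, plus strand. It read 3.48, 3.49 and 3.50 in WT spleen, 3.63, 3.59 and 3.55 in KO spleen, 5.09, 5.19 and 5.54 in WT tumor, and 5.10 and 5.55 in KO tumor. The 6 spleen values lay within 0.2 of each other and the 5 tumor values within 0.5. Sqle rose by 1.75 (SE 0.098; adjusted p = 4.19e-09, limma), with a ratio of mean n of 3.63, and no transcript of another gene matched it at the identity and length given above.

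Idi1, the isomerase that interconverts the isoprenoid units, lies on chromosome 13 at 8885501 to 8892451, plus strand. It read 3.86, 3.95 and 3.82 in WT spleen, 3.96, 3.84 and 3.67 in KO spleen, 5.25, 4.63 and 5.26 in WT tumor, and 5.28 and 5.18 in KO tumor. The second WT tumor library was low among the tumor libraries but still above all spleen libraries. Idi1 rose by 1.27 (SE 0.11; adjusted p = 3.57e-07, limma), the smallest difference of the 4 enzymes, with a ratio of mean n of 2.55. The pseudogene Gm13502 matches Idi1 at 100% over 684 bases and is listed with 1.31 ± 0.77 in spleen (SD, n = 6) and 3.80 ± 0.40 in tumor (n = 5). With n of both summed, a choice made after the data were seen, the level was 4.02 ± 0.14 in spleen and 5.58 ± 0.30 in tumor, a difference of 1.57 in place of 1.27.

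The 4 enzymes thus rose relative to Srebf2 in every tumor library. Hmgcs1 minus Srebf2 within a library went from -1.74 ± 0.13 in spleen (SD, n = 6) to -0.12 ± 0.085 in tumor (n = 5). Fdps minus Srebf2 went from -1.53 ± 0.088 to -0.13 ± 0.11, Sqle minus Srebf2 from -2.28 ± 0.13 to -0.90 ± 0.15, and Idi1 minus Srebf2 from -1.97 ± 0.15 to -1.07 ± 0.23. For each of these 4 pairs the tumor and spleen ranges did not overlap; the levels of a pair depend on transcript length and are not compared between genes.

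Abca1, which loads cholesterol onto apolipoprotein A-I and is an LXR target, lies on chromosome 4 at 53030787 to 53159895, minus strand. It read 2.77, 2.77 and 2.60 in WT spleen, 2.62, 2.63 and 2.47 in KO spleen, 6.03, 6.97 and 6.73 in WT tumor, and 6.32 and 6.66 in KO tumor. The gap between the highest spleen and the lowest tumor library was over 3 units. Abca1 rose by 3.90 (SE 0.14; 95% interval 3.59 to 4.21; adjusted p = 1.19e-10, limma), and the ratio of mean n was 17.96. Its SD in tumor, 0.37, was 3.17 times its SD in spleen, 0.12. The summed level of the myeloid markers in the same tumor libraries was 13.6, 14.1 and 14.1 in WT and 13.7 and 13.9 in KO; Abca1 and these markers were both lowest in the first WT library and both highest in the second. Macrophages are known to carry much Abca1, and the part of myeloid RNA in its rise was not tested.

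Abcg1, the exporter to high-density lipoprotein and also an LXR target, lies on chromosome 17 at 31057675 to 31117988, plus strand. It read 5.39, 5.46 and 5.42 in WT spleen, 5.50, 5.27 and 5.26 in KO spleen, 5.59, 5.30 and 5.51 in WT tumor, and 5.62 and 5.54 in KO tumor. The tissues overlapped: 4 of 5 tumor libraries were above all spleen libraries, and the second WT tumor library lay within their range. The difference was 0.13 (SE 0.073; 95% interval -0.028 to 0.289; adjusted p = 0.117, limma; exact two-sided permutation p = 0.0909). Without the second WT tumor library, the 1 that read 5.30, it was 0.18 and passed (adjusted p = 0.0219), but with equal totals it was -0.48 (adjusted p = 4.3e-05), so no direction can be given for Abcg1. Abca1 minus Abcg1 within a library went from -2.74 ± 0.11 in spleen (SD, n = 6) to 1.03 ± 0.48 in tumor (n = 5), with no overlap. Both exporters share the LXR receptors as controllers, and the cause of the difference between them was not tested.

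Scaling was followed for all 8 genes because the library totals differed by tissue. On the deposited values the median difference over all genes was 0.082, with quantile normalization -0.16, with median centring -0.14 and with equal totals -0.43. The share of called genes that were higher went from 54.5% to 42.1%, 43.7% and 29.6% in the same order. Insig1, Hmgcs1, Idi1, Fdps, Sqle and Abca1 were called higher under each of these and also with equal totals computed without Gm12896, 5 scalings in all, whereas 23.4% of all genes tested were. With equal totals the rises of Insig1, Hmgcs1, Idi1, Fdps and Sqle were 0.87, 1.38, 0.67, 1.15 and 1.15, and that of Abca1 was 3.29.

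**Figure D2:**
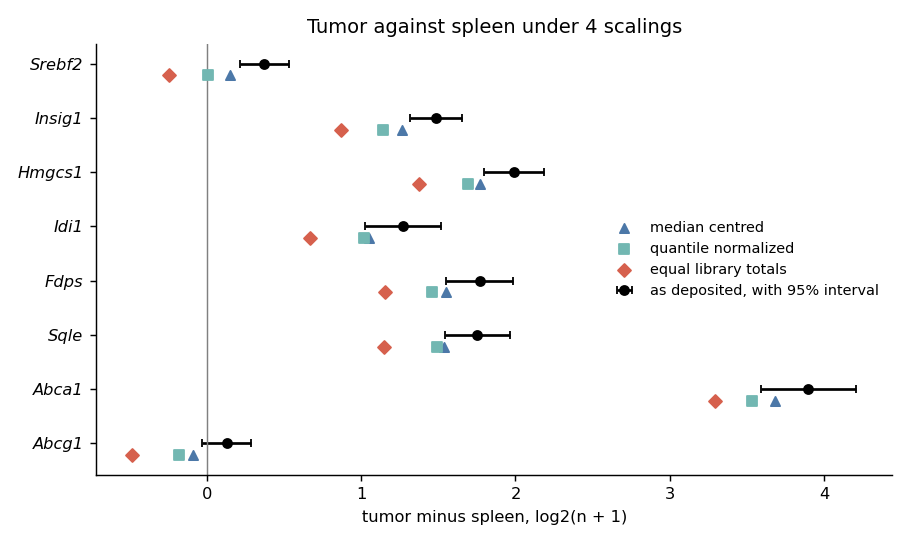
Tumor minus spleen difference in log2(n + 1) (horizontal axis) for the 8 genes; circles with bars are the fit to the deposited values with its 95% interval, and the other marks are the same fit after median centring, quantile normalization or equal library totals. Srebf2 and Abcg1 lie on both sides of 0, from 0.37 to -0.25 and from 0.13 to -0.48, and the other 6 genes stay to its right.

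The comparison was then made within each genotype, to ask whether the tissue difference was seen with and without CD177 in Tregs. Across all genes 70.5% were called in WT and 65.7% in KO, and 7 of 8 members were called in each, all higher in tumor. The rise in WT and in KO was 1.55 and 1.39 for Insig1, 1.89 and 2.11 for Hmgcs1, 1.70 and 1.87 for Fdps, 1.78 and 1.73 for Sqle, 1.17 and 1.41 for Idi1, and 3.86 and 3.92 for Abca1 (each with an adjusted p of 8.11e-05 or less, limma). Srebf2 differed by 0.34 in WT (adjusted p = 0.0115) and 0.42 in KO (adjusted p = 0.00768), calls that were lost without the third WT spleen library (0.25, adjusted p = 0.0509) and without the second KO tumor library (0.33, adjusted p = 0.0727). Abcg1 did not pass in either, with 0.045 in WT (adjusted p = 0.704) and 0.24 in KO (adjusted p = 0.0827), but passed in KO without the first KO spleen library (0.32, adjusted p = 0.0370). The 7 genes called did not overlap between tissues within either genotype, nor did Abcg1 in KO, against 74.2% of all genes in WT and 77.7% in KO, and within a genotype the exact two-sided test cannot go below 0.1 for 3 against 3 libraries or below 0.2 for 3 against 2.

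None of these genes passed between the genotypes. None of the 8 was called in KO against WT spleen (0% of all genes called), in KO against WT tumor (0.0072%, which is 1 gene) or in the interaction of tissue and genotype (0%), and none of the 8 had an unadjusted p below 0.05, where limma gave 281, 634 and 383 of all genes below that value in the 3 comparisons. In spleen the widest KO minus WT difference was that of Hmgcs1, -0.16 (95% interval -0.42 to 0.11). In tumor it was that of Idi1, 0.18 (95% interval -0.21 to 0.58), and Abca1 differed by -0.081 (95% interval -0.59 to 0.43). For the change of the tissue difference with genotype, the estimate was 0.22 for Hmgcs1 (95% interval -0.19 to 0.62), 0.24 for Idi1 (-0.29 to 0.77) and 0.060 for Abca1 (-0.62 to 0.74). Genotype differences of the sizes these intervals span were not detectable with 2 or 3 libraries a group.

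In order of group means, Insig1 and Abca1 were highest in WT tumor (6.38 and 6.57) followed by KO tumor (6.26 and 6.49), and the other 6 genes were highest in KO tumor followed by WT tumor. KO and WT of the same tissue were not told apart by limma in any of the 8, and their values overlapped in all but Sqle in spleen, which read 3.48 to 3.50 in WT and 3.55 to 3.63 in KO (limma difference 0.10, 95% interval -0.21 to 0.41; an exact two-sided permutation test of 3 against 3 libraries cannot go below 0.1). Over all genes KO and WT did not overlap in 9.17% in spleen and in 13.6% in tumor, where none of the 8 was apart. On the deposited values the step from tumor to spleen exceeded the spread in all but Abcg1, although that of Srebf2 changed direction with scaling. The 4 group means of Abcg1 followed closely on one another. They were 5.58 in KO tumor, 5.47 in WT tumor, 5.42 in WT spleen and 5.34 in KO spleen.

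More of the synthesis pathway was read from 20 enzymes, including the 4 above. Of the 20, 17 rose, 2 fell and 1 did not pass, with a median difference of 0.89 against 0.082 over all genes. The shares over all genes were 78.9% called and 43.1% called higher. Msmo1, a sterol C4-methyl oxidase, rose by 1.77 (adjusted p = 3.78e-09), and with Hmgcs1, Fdps and Sqle was among the 4 widest. The 2 that fell were Tm7sf2, by 0.71 (adjusted p = 0.00146), and Lbr, by 0.63 (adjusted p = 3.0e-05), which both code for sterol C14 reductases; the product of Lbr is also the lamin B receptor of the nuclear envelope. Dhcr7, the last reductase, differed by 0.060 on the deposited values (adjusted p = 0.556), but with equal totals it was called lower, at -0.53 (adjusted p = 0.000104, limma). Under all 5 scalings 10 of the 20 were higher and 2 were lower, against 23.4% and 35.7% of all genes.

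**Figure D3:**
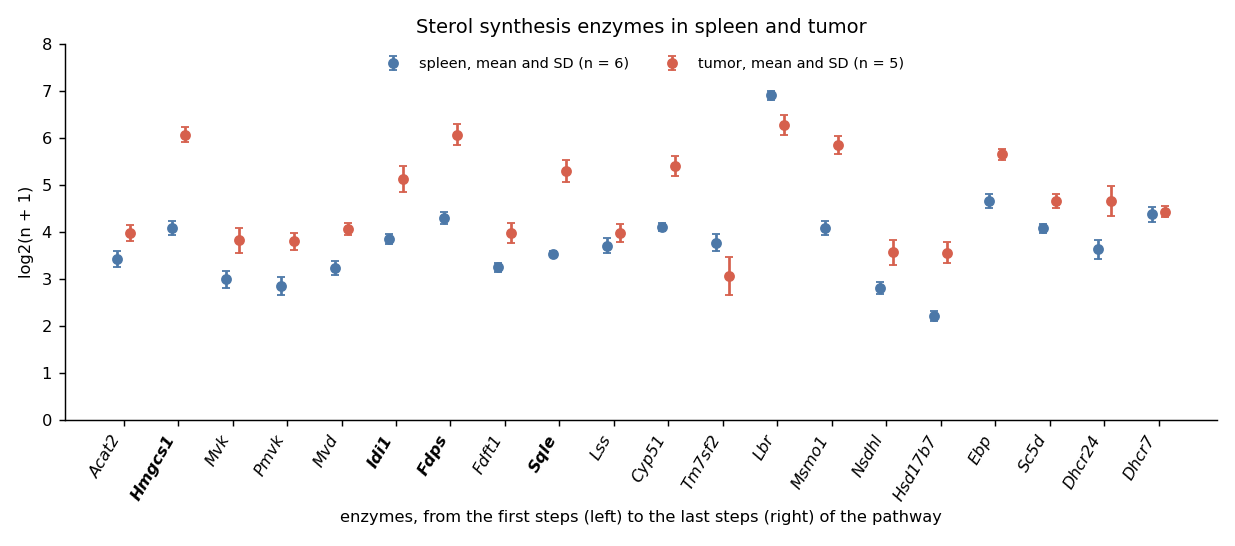
Log2(n + 1) of 20 sterol synthesis enzymes (vertical axis) in the order of the pathway (horizontal axis), with the mean and SD over 6 spleen and 5 tumor libraries; the 4 enzymes described one by one are in bold. On this scale, that of the deposited values, tumor lies above spleen in 17 of 20 by the test and below it in Tm7sf2 and Lbr, and Dhcr7 did not pass. Heights are not comparable between genes.

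The genes that control SREBP went in both directions. Of 11, 6 rose, 2 fell and 3 did not pass, with a median of 0.37, beside 78.9% called and 43.1% called higher over all genes. Erlin1, a membrane protein that takes part in degradation at the endoplasmic reticulum, rose by 1.94 (adjusted p = 1.22e-07), its partner Erlin2 by 1.004 (adjusted p = 6.09e-06), and Insig2, the other INSIG, by 1.24 (adjusted p = 1.9e-05). Scap, the escort of SREBP, fell by 0.30 (adjusted p = 0.000881). Srebf1, the sister gene of Srebf2 that turns on fatty acid synthesis, fell by 0.21 (adjusted p = 0.0317). Both were lower under all 5 scalings. Within WT both were called lower (-0.35 and -0.32, adjusted p = 0.00433 and 0.0209, limma), but neither was called in KO (-0.24 and -0.074, adjusted p = 0.0534 and 0.600). Under all 5 scalings 4 of the 11 were higher and 2 lower, against 23.4% and 35.7% of all genes. Insig1 minus Scap within a library went from 0.23 ± 0.14 in spleen (SD, n = 6) to 2.005 ± 0.21 in tumor (n = 5).

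Uptake of lipoprotein and release of its sterol in the lysosome were read from the 11 genes shown here. Of these, 9 rose and 2 did not pass, with a median of 1.04, where 78.9% of all genes were called and 43.1% called higher. The widest rises were those of Lrp1 (4.48) and Cd36 (4.01), an endocytic and a scavenger receptor that macrophages are known to carry, of Npc2 (2.39), which hands sterol on within the lysosome, and of Vldlr (2.28), a receptor of triglyceride-rich lipoproteins. Lrp1 ranged from 2.53 to 4.07 over the 6 spleen libraries, with a median of 3.12, and read 7.48, 8.09 and 7.98 in WT tumor and 7.41 and 7.62 in KO tumor. The 2 that did not pass were Mylip, a ubiquitin ligase and LXR target, with 0.042 (adjusted p = 0.746), and Stard3, a sterol carrier of late endosomes, with 0.043 (adjusted p = 0.703). Under all 5 scalings 7 of the 11 were higher and 0 were lower, against 23.4% and 35.7% of all genes. With equal totals 7 were called higher and 3 lower, which were Mylip, Stard3 and Stard4. Stard4 was counted among the 9 that rose, with 0.25 (adjusted p = 0.028, limma), but was -0.35 with equal totals (adjusted p = 0.00373, limma).

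Export and LXR held 11 genes, of which 4 rose, 2 fell and 5 did not pass, with a median of 0.13, a smaller share called higher than the 43.1% of all genes. The share called in either direction was also below the 78.9% of all genes here, in SREBP control and among the ester and oxysterol genes, and above it in synthesis and uptake. The 4 were Apoe, an apolipoprotein that macrophages secrete (5.93 ± 0.42 in spleen and 11.05 ± 0.28 in tumor, a rise of 5.13), Abca1, Tspo, a sterol-binding protein of mitochondria (2.39), and Rxra, a partner of LXR (1.08). The LXR genes themselves did not pass, Nr1h2 with -0.063 (adjusted p = 0.589) and Nr1h3 with 0.26 (adjusted p = 0.140). Under the 4 other scalings, however, Nr1h2 was called lower, with differences of -0.55 with quantile normalization (adjusted p = 0.00056), -0.28 with median centring (adjusted p = 0.0358) and -0.68 with equal totals (adjusted p = 7.29e-05), while Nr1h3 passed in none of them, and Rxrb fell by 0.52 (adjusted p = 1.65e-05). Of the known LXR targets read here, Abca1 and Apoe rose, Srebf1 fell, and Abcg1, Mylip and Lpcat3 (0.020, adjusted p = 0.873, limma) did not pass. With equal totals Abcg1, Mylip and Lpcat3 were called lower (-0.48, -0.54 and -0.58, adjusted p = 4.3e-05, 0.002 and 0.000168, limma). The 4 of the 11 genes that rose and the 2 that fell kept their calls under all 5 scalings, beside 23.4% higher and 35.7% lower of all genes. Of 8 genes for sterol esters and oxysterols, 4 rose, 1 fell and 3 did not pass, with a median of 0.96. Ch25h, which makes 25-hydroxycholesterol, an oxysterol that binds INSIG, rose by 5.46, from 0.21 ± 0.12 (SD, n = 6) to 5.67 ± 0.49 (n = 5), and Soat1, which makes cholesteryl esters, rose by 2.20 (adjusted p = 1.06e-09). Cyp27a1, the sterol 27-hydroxylase, rose by 2.17 and Nceh1, a cholesteryl ester hydrolase, by 1.86, whereas Soat2 fell by 0.89 (adjusted p = 3.09e-06), and these 5 calls held under all 5 scalings. Several of the genes with the widest rises here, Apoe, Lrp1, Cd36 and Ch25h, were high in the tumor libraries, as were the myeloid markers given above, whose part was not tested. Among the tumor libraries the order was not shared by all. Lrp1, Apoe and Ch25h were highest in the second WT library (8.09, 11.4 and 6.10), where the myeloid sum was highest. Cd36 was lowest there (4.21) and highest in the first KO library (5.37). Ch25h was lowest in the first WT library (4.84), where the myeloid sum was lowest, and Lrp1 and Apoe were lowest in the first KO library (7.41 and 10.8). Apoc1, Cyp7b1 and Cyp46a1 are not listed, and Abcg4 fell below the filter.

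**Figure D4:**
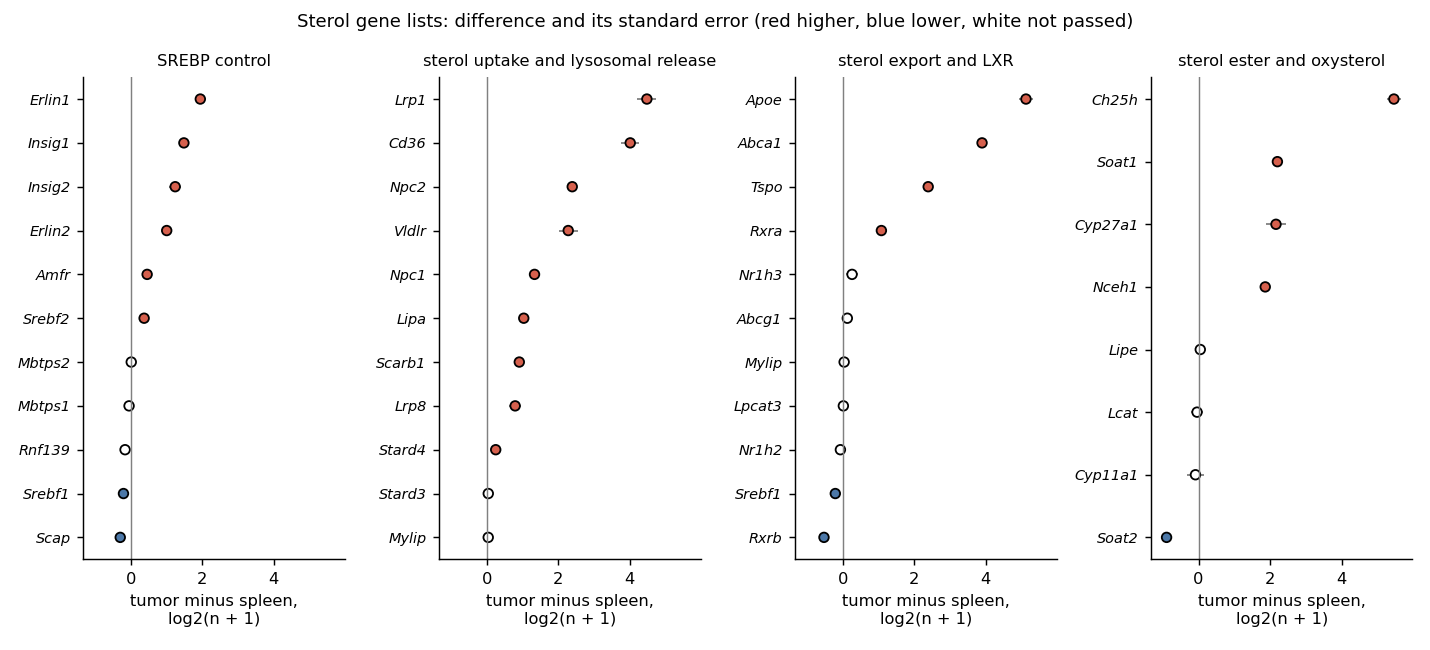
Tumor minus spleen difference in log2(n + 1) (horizontal axis) with its standard error for the genes of 4 sterol lists; red marks genes called higher in tumor, blue those called lower and white those that did not pass. Ch25h and Apoe lie farthest to the right at 5.46 and 5.13, and on this scale, that of the deposited values, the LXR genes Nr1h2 and Nr1h3 lie near 0; Srebf1 and Mylip stand on 2 lists each.

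Likeness of profile was measured as the root mean square difference between values centred on each gene's mean over the 11 libraries. Among all genes tested, Sqle was at place 5 from Fdps and Fdps at place 37 from Sqle (0.132), and Fdps was at place 4 from Hmgcs1 and Hmgcs1 at place 7 from Fdps (0.134). The nearest genes outside the 8 were Cox6b1 for Insig1 (0.068), Tmem189 for Hmgcs1 (0.087), Gpi1 for both Fdps (0.092) and Sqle (0.090), Atp6v1f for Idi1 (0.11), Clic4 for Abca1 (0.12), Wdr48 for Srebf2 (0.072) and Vasp for Abcg1 (0.057). The next nearest were Myl12a, Akr1a1, Psmd8, Yif1b, Tg, Vat1, Nudt21 and Eif1ad in the order Insig1, Hmgcs1, Fdps, Sqle, Idi1, Abca1, Srebf2 and Abcg1. All points share the 11 libraries and the step between tissues, so a small value says mainly that the step was alike in size.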

How the data were processed

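RNA of sorted Tregs was sequenced in 11 libraries, whose titles give the tissue and genotype used for grouping. After depletion of ribosomal RNA, the authors ran kallisto on single-end reads against mm10, passed the estimated counts through sleuth 0.30.0, summed by gene symbol and deposited log2 values, log2(n + 1). The kallisto version and the annotation are not stated in the sources at hand. With no counts to use, no count model was fitted.

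The 8 genes, the lists, markers and tests were chosen with earlier results of these data known. limma 3.58.1 in R 4.3.3 (eBayes with a mean-variance trend) was fitted to 13897 genes, as 5 tumor against 6 spleen libraries and with 4 means of tissue and genotype. Exact permutation tests used scipy 1.17.1, and similar transcripts were searched with blastn 2.17.0. Genes were named by rule: the 8, the 4 called genes with the widest difference on each list, Srebf1, Scap, Nr1h2, Nr1h3, Mylip, Soat1 and Apoe, the 2 nearest profiles and the highest markers. Foxp3, Tm7sf2, Lbr, Dhcr7, Stard3, Stard4, Rxrb, Lpcat3, Soat2, Gm13502, Pf4, Hba-a2, Cdh1 and Epcam were named after their values were seen. Alternatives were 3 other scalings, equal totals without the most abundant gene (added after seeing the data), pseudocounts of 0.1 and 5, no filter or a mean of 2, no trend, Bonferroni correction, genotype as a covariate, a replicate block and leaving out each library. The scripts were tested on simulated data. Certain genes of the wider lists, which moved in either direction, are not reported here and are left out of the lists' counts.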

Additional observations from a re-analysis of the deposited data

Results flagged for a closer look

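Idi1 in the second WT tumor library read 4.63, whereas the other 4 tumor libraries lay between 5.18 and 5.28, a gap wide enough to stand out by Dixon's test. Vldlr in the second WT spleen library read 0.447, whereas the other 5 spleen libraries lay between 0.056 and 0.155. In all, 56 groups of 28 genes were examined, of which about 2.8 would be marked by chance, and these 2 were.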

How the results depend on the processing

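Insig1, Hmgcs1, Idi1, Fdps, Sqle and Abca1 stayed called and higher in the pooled comparison under all 23 alternatives, Bonferroni correction included. The count of called members was 6 to 8 and without any 1 library 7 to 8; with equal totals it was 8, of which 6 were higher and 2 lower. Bonferroni correction left 5051 genes in the pooled comparison, 2449 in WT and 1857 in KO, 10 synthesis enzymes, 3 genes of SREBP control, and ended the calls of Srebf2 (adjusted p = 1 in all 3) and of Idi1 in WT (0.289) and KO (0.148). Equal totals gave 10 called genes for export and LXR (4 higher and 6 lower), with or without Gm12896, and 14 for the synthesis enzymes (10 higher and 4 lower). Over all genes, equal totals without Gm12896 gave 11373 called of 13897. The interaction gave 1 gene with a pseudocount of 0.1 and 0 to 1 without any 1 library; without the second WT spleen library it was 1. The 1 gene of KO against WT tumor, Gm45837, was lost (0 genes) under quantile normalization, median centring, equal totals with or without Gm12896, a pseudocount of 5, no filter and the replicate block, and the count was 0 to 2 without any 1 library, 2 without the first KO tumor library.

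For Srebf2 quantile normalization, median centring, equal totals and equal totals without Gm12896 gave 0.0079, 0.15, -0.25 and -0.24 pooled, -0.018, 0.12, -0.26 and -0.30 in WT, and 0.052, 0.22, -0.21 and -0.16 in KO. It missed the threshold in WT without the third spleen library (0.25, adjusted p = 0.0509) and in KO without the second tumor library (0.33, adjusted p = 0.0727). For Abcg1 the same 4 scalings gave -0.18, -0.088, -0.48 and -0.48 pooled and -0.27, -0.18, -0.55 and -0.59 in WT; quantile normalization and both equal totals gave -0.069, -0.38 and -0.33 in KO. Abcg1 in WT was -0.018 (without the first tumor library) to 0.13 (without the second) and passed in KO without the first spleen library (0.32, adjusted p = 0.0370). The cause was not tested. Of 24 member values in the genotype comparisons, 13 changed sign in at least 1 alternative and the smallest adjusted p was 0.529.

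Same-numbered tumor and spleen libraries deviated with correlations of -0.128 to 0.038. With 2 or 3 libraries a group, such values cannot show whether libraries of the same number share a mouse. With the replicate block 7 members were called, as without it. The table gives neither the reads behind a value nor how n was scaled, so no counting error could be set beside small differences.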
